A study of Mus musculus with 4 samples.

Results

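H3K27ac, a histone mark of active promoters and enhancers, was examined at the genes of 9 transcription factors of the GATA and MAF families. These were *Gata1*, *Gata2*, *Gata3*, *Gata4*, *Gata5*, and *Gata6*, and *Maf*, *Maff*, and *Mafk*, chosen by name from the 21883 protein-coding genes of the mouse gene table, and all 9 were found there. The data are 2 lists of ChIP-Seq peaks from isolated mouse liver sinusoidal endothelial cells (LSECs), here replicates 2 and 3, as their libraries are numbered. Both libraries form 1 condition, so no groups were compared. Strain, genotype, age, sex, and treatment of the mice behind these libraries are not stated in the labels. In the study's methods, mouse LSECs were purified with beads against CD146, a protein that other endothelial cells also carry, so other endothelial cells of the liver may have been included. The general isolation protocol includes a brief culture, but the ChIP-Seq methods name no culture step. Whether the cells of these libraries were cultured is therefore not stated. Each H3K27ac library has an input of the same number, which was not analysed here.

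GATA factors are zinc finger proteins that bind DNA at the letters GATA. GATA4 directs the development of sinusoidal endothelium in the liver, and its loss from these cells is known to give a continuous, capillary-like endothelium. GATA2 acts in blood and endothelial cells, GATA1 in red cells and megakaryocytes, GATA3 in T cells, and GATA5 and GATA6 in the heart and in tissues derived from endoderm. MAF factors are basic leucine zipper proteins. MAF (c-MAF) is a large member with an activation domain and has been linked to LSEC identity together with GATA4. MAFF and MAFK are small members that lack such a domain and bind DNA as dimers, often with CNC factors such as NFE2L2 or BACH1.

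The list of replicate 2 held 26975 peaks and that of replicate 3 held 64498, which was 2.39 times as many. Sequencing depth is unknown, as no read counts come with the lists, and a gene without a replicate 2 peak may still carry the mark. Fold enrichment is the authors' ratio of a peak's signal to background. It was not normalised between libraries, so libraries were set side by side by the percentile of a peak among all peaks of its own list. As the lists differ in length, an equal percentile is not an equal rank. The many further peaks of replicate 3 can raise the percentile of a shared region there. Each gene was given a window of its body plus 50 kb on each side. Peaks that overlapped by at least 1 bp were merged into 1 region. A region within 1 kb of either end of its gene was an own-end region, a region within 1 kb of an end of another protein-coding gene was set apart, and all others in the window were distal. The gene table gives neither strand nor exons, so both ends of a gene were used and exons were not told apart from introns. The cell type was checked against markers. Of 12 LSEC markers, 9 had an own-end region with peaks of both replicates and 3 had one in replicate 3 only (*Stab2*, *Clec4g*, and *Mrc1*). Fold enrichments of these 3 in replicate 3 were 5.86, 4.56, and 4.15. The list includes general endothelial genes such as *Pecam1* and *Cdh5*, so it does not tell LSECs from other endothelial cells. Of 34 markers of hepatocytes, hepatic stellate cells, Kupffer cells, lymphocytes, cholangiocytes, and the erythroid and megakaryocyte lineage, 3 had one with peaks of both replicates (*Cd79a*, *Klf1*, and *Pf4*) and 4 had one in replicate 3 only (*Apoa1*, *Apob*, *Epcam*, and *Epor*). Within 1 kb of their annotated starts, *Cd79a* and *Apoa1* had no peak of either replicate. Over all protein-coding genes, the share with an own-end region of both replicates was 44.1%.

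The promoters are shown first, since several of the genes start inside the gene body of the table and the results turn on where a start lies. Sequences are from RefSeq on GRCm38.p6, each of 300 bases, with 250 before the start and 50 from it, written 5′ to 3′ on the strand of the gene. The table held 9 starts for 6 of the 9 members. *Gata4*, *Gata6*, and *Maf* had no entry. Capitals mark the letters of 3 motifs, searched on both strands. These were the GATA motif as AGATAA or AGATAG or TGATAA or TGATAG, the MAF half-site TGCTGA, and an ETS core, CCGGAA. The first pair contrasts the outer and inner start of *Gata2*, which lay on chr6:88193641-88193940 and chr6:88198414-88198713 of the plus strand. Replicate 3 alone had a peak over the outer one, and both replicates had one over the inner one.

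Gata2 outer start: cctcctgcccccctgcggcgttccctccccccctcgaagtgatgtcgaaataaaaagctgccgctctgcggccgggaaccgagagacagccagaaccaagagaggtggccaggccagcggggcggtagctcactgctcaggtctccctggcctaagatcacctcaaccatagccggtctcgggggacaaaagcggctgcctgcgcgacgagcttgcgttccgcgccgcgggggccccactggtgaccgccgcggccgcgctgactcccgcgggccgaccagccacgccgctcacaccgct
Gata2 inner start: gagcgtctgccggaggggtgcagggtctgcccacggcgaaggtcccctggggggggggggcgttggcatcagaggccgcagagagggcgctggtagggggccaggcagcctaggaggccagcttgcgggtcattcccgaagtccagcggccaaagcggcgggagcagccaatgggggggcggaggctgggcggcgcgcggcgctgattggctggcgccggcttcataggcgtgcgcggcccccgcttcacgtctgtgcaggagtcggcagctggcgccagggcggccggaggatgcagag

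The next pair contrasts the first and the second of 3 starts of *Maff*, on chr15:79346371-79346670 and chr15:79347270-79347569 of the plus strand. The second lay in full under a peak of each replicate, whereas the first did not. The start of *Mafk*, on chr5:139791286-139791585 of the plus strand, is shown because its peak was the strongest at an end of any member.

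Maff first start: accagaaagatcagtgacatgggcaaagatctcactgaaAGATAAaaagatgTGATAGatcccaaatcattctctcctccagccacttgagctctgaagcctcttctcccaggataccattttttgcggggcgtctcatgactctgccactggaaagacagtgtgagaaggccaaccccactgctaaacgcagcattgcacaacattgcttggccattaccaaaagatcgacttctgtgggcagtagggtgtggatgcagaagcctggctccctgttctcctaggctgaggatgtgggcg
Maff second start: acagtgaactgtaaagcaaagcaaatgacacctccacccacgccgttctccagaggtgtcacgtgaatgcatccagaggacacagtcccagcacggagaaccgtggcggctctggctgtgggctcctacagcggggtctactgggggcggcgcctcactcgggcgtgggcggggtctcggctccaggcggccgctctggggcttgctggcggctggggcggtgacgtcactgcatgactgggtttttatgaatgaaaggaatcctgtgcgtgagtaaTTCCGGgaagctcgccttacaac
Mafk start: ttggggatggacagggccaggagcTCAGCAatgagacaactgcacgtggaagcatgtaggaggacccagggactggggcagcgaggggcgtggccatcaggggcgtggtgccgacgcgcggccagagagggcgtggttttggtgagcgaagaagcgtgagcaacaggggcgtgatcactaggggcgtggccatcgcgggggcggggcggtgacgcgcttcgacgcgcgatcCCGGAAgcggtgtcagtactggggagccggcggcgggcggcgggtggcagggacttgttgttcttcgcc

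The start of *Gata3*, on chr2:9878551-9878850 of the minus strand, was added after its values had been seen, because its strong peak lay just upstream.

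Gata3 start: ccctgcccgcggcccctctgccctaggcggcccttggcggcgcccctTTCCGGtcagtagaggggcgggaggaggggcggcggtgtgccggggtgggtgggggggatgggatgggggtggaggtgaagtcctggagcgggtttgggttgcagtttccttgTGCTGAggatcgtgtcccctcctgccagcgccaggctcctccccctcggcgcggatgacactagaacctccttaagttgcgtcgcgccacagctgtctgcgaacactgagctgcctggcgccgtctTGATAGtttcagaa

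The windows differed in CG dinucleotides and in coverage by peaks. The first start of *Maff*, of which replicate 2 covered no base and replicate 3 covered 8.67%, held 5 CG dinucleotides and a G+C share of 50.3%. The second start of *Maff*, covered in full by both replicates, held 21 CG and a G+C share of 61.3%. The third start of *Maff* held 14 CG, and 86.7% of it was covered in replicate 2 and all of it in replicate 3. The start of *Mafk*, covered in full by both replicates, held 31 CG. A high CG count was also found without a replicate 2 peak. The start of *Gata5* held 26 CG and had no peak in either replicate, and the outer start of *Gata2*, with 32 CG, had 44.3% of its bases covered in replicate 3 and none in replicate 2. The start of *Gata1* had 4 CG and no peak. Over the 21262 windows of protein-coding genes in the table, the median was 13 CG, with 23 in the 9068 windows that a region with peaks of both replicates overlapped and 4 in the 10569 windows that no peak overlapped.

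The motifs were counted in all 9 windows, which are too few for a comparison with the shares over all windows. The first start of *Maff* held 2 GATA motifs, at bases 40 to 45 and 53 to 58 of the window counted from 1, and the start of *Gata3* held 1, at bases 287 to 292. The other 7 windows held none. A GATA motif was present in 26.0% of all 21262 windows and in 15.8% of those that a region of both replicates overlapped. The MAF half-site was found once at *Gata3* and once at *Mafk*, against 18.1% of all windows. The ETS core was found once each at *Gata3*, at the second start of *Maff*, and at *Mafk*, against 18.7% of all windows and 33.4% of those under a region of both replicates. The motifs overlapped each other nowhere in the windows shown. These matches are a description of letters only.

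At their own gene ends, all 3 MAF genes and 3 of the 6 GATA genes (*Gata2*, *Gata4*, and *Gata6*) had a region with peaks of both replicates, so 6 of 9 members had one, against 44.1% of all protein-coding genes. The same 6 had an own-end peak in replicate 3, against 53.9% of all protein-coding genes. *Gata1*, *Gata3*, and *Gata5* had none in either replicate. The 6 genes held 7 such regions, and another 4 own-end regions were called in replicate 3 alone. The shared region of *Gata2*, chr6:88206020-88206311, lay 0.72 kb from its high-coordinate end. As *Gata2* is on the plus strand, this is the end away from its starts. At its low-coordinate end, *Gata2* had a replicate 3 peak only. With so few members, these shares describe the members and were not tested.

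The strongest own-end peaks of the MAF genes were higher than those of the GATA genes in each list. This order holds for gene ends only. The inner start of *Gata2* lay under a peak of 14.2 in replicate 2 and 41.4 in replicate 3, above the own-end peaks of *Maf* in each replicate. The peak just upstream of the *Gata3* start had 15.1 and 63.5 in replicates 2 and 3. *Mafk* stayed above both. At *Mafk*, the fold enrichment was 21.7 in replicate 2 and 98.2 in replicate 3, at percentiles 85.9 and 98.6 of the lists. At *Maff*, it was 15.7 in replicate 2 and 37.7 in replicate 3, at percentiles 73.7 and 87.1. At *Maf*, it was 13.6 in replicate 2 and 31.3 in replicate 3, at percentiles 67.0 and 83.8. Both replicates gave the order *Mafk*, *Maff*, *Maf*. Over all protein-coding genes with an own-end peak, the median of the highest fold enrichment was 15.9 in replicate 2 and 38.7 in replicate 3, so *Mafk* was above this median in each replicate and *Maff* was just below it.

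The GATA genes with an own-end peak had weak ones. At *Gata4*, the highest fold enrichment was 8.13 in replicate 2 and 11.97 in replicate 3, at percentiles 38.2 and 60.9. At *Gata2*, it was 5.42 in replicate 2 and 12.1 in replicate 3, at percentiles 7.67 and 61.5, both near its high-coordinate end. At *Gata6*, it was 4.74 in replicate 2 and 8.79 in replicate 3, at percentiles 2.33 and 49.0. The 8.79 at *Gata6* came from a region of replicate 3 alone, and the region with peaks of both replicates had 7.16 in replicate 3. *Gata6* was lowest of the 6 in each replicate, while the order of *Gata2* and *Gata4* differed between replicates. The calls at *Gata2* and *Gata6* rest on weak replicate 2 peaks, with a −log10 q of 4.78 and 3.62, and neither was left at a q-value of 1e-05 or below. Where each peak had to cover at least 50% of the other, the own-end calls at *Gata6* and *Mafk* were lost.

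**Figure D1:**
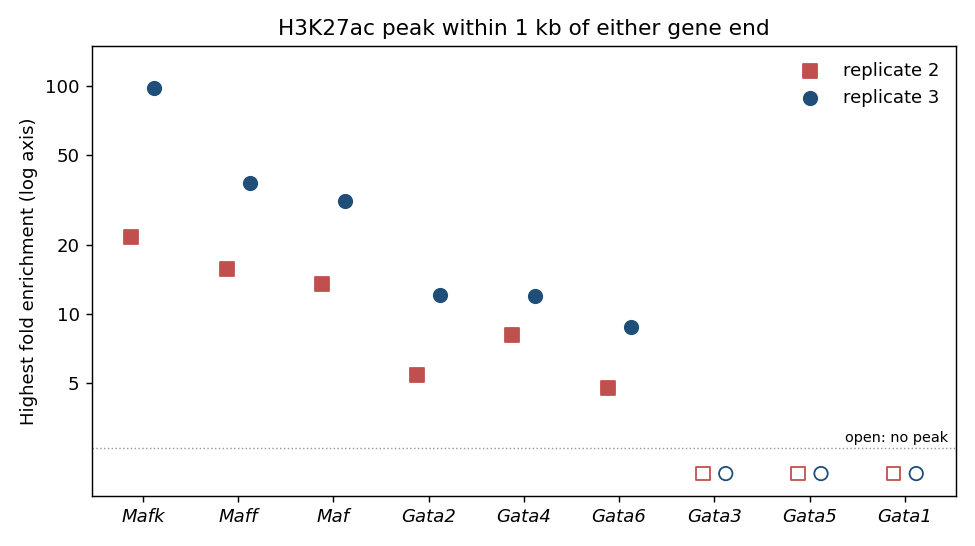
Highest fold enrichment (log axis) of an H3K27ac peak within 1 kb of either end of each gene, with squares for replicate 2, circles for replicate 3, and open symbols in the bottom strip for genes without a peak there. *Mafk*, *Maff*, and *Maf* lie above the 3 GATA genes in each replicate, and *Gata3*, *Gata5*, and *Gata1* have no peak at a gene end. Starts inside a gene body are not shown.

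The peaks also differed in shape. The own-end region of *Mafk* lay at chr5:139790898-139792702 and spanned the low-coordinate end of the gene, which is its start. Its peak was 425 bp wide in replicate 2 and 1805 bp wide in replicate 3, where it was at percentile 98.3 of width. That of *Maff* lay at chr15:79346925-79348708, inside the gene, with widths of 1173 bp and 1784 bp, at percentiles 98.5 and 98.2. The median width of all peaks was 322 bp in replicate 2 and 345 bp in replicate 3. *Maff* was thus broad in both lists, and *Mafk* in replicate 3 only. *Maf* had 2 regions side by side at its high-coordinate end, chr8:115706822-115707614 over the end itself and chr8:115707692-115708482 just outside the gene, with fold enrichments of 6.10 and 13.6 in replicate 2 and 11.7 and 31.3 in replicate 3. The region outside the gene was the stronger one in each replicate.

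Gene ends miss a start that lies inside the gene body, so the annotated starts were examined as well, an alternative chosen after the lists had been opened. Within 1 kb of a start, 4 of the 6 members with an entry had a region with peaks of both replicates (*Gata2*, *Gata3*, *Maff*, and *Mafk*), against 45.9% of the 17491 protein-coding genes with an entry. *Gata1* and *Gata5* had none. At *Gata2*, the inner start lay under a peak of 14.2 in replicate 2 and 41.4 in replicate 3, at percentiles 69.2 and 88.6, whereas the outer start had a replicate 3 peak of 7.81 and no replicate 2 peak within 1 kb. Enrichment at *Gata2* was thus higher at the inner start than at either end of the gene. At *Gata3*, the start itself lay under a weak replicate 3 peak of 6.93, and the peak of both replicates, at chr2:9879248-9879916, was upstream. Its fold enrichments were 15.1 and 63.5 in replicates 2 and 3, at percentiles 71.9 and 94.7. Its replicate 2 peak began 992 bases from the start, just inside the limit of 1 kb. It was counted as distal in the counts below, since the nearest gene end was 8.04 kb away. *Gata1* was without a peak near its start in both replicates, the nearest lying 19679 bp away in replicate 2 and 19378 bp away in replicate 3, at an end of the deacetylase gene *Hdac6*. At *Gata5*, the nearest peak to the start lay 60803 bp away in replicate 2 and 12442 bp away in replicate 3.

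Distal regions with peaks of both replicates were present in the windows of 6 of 9 members, against 51.1% of all protein-coding genes. A distal replicate 3 peak was present in 8 of 9, against 74.0%. The 9 windows held 24 distal regions with peaks of both replicates, 71 with a replicate 3 peak only, and 0 with a replicate 2 peak only. Replicate 3 taken alone thus gave 95 and replicate 2 taken alone gave 24. Of the 24, *Gata4* held 10 and *Maff* 6, *Gata2* and *Mafk* 3 each, and *Maf* and *Gata3* 1 each. *Gata1*, *Gata5*, and *Gata6* held 0. The single regions of *Maf* and *Gata3* were lost where each peak had to cover at least 50% of the other. The median was 1 per member, as it was per protein-coding gene, so the set as a whole did not stand apart by its median, and the members differed widely among themselves. By replicate 3 alone, the median was 9 per member and 3 per protein-coding gene.

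**Figure D2:**
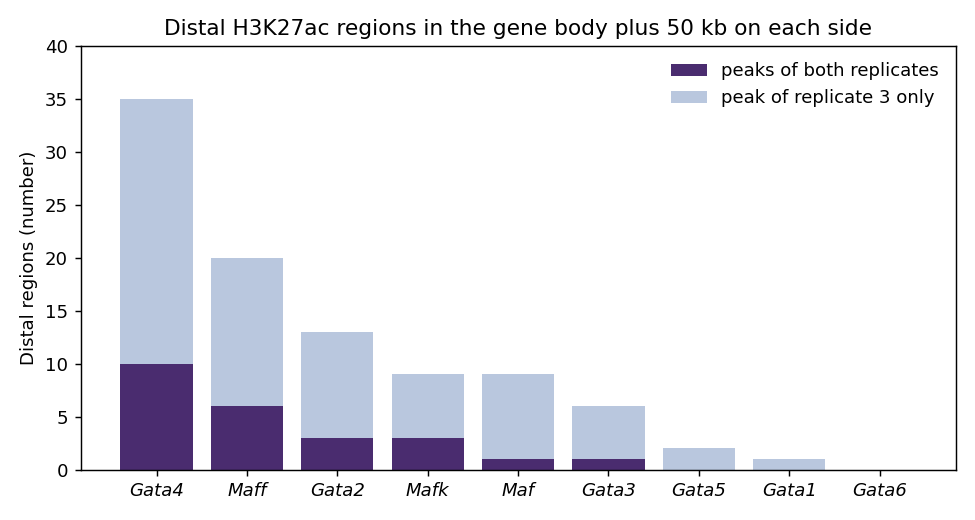
Number of distal H3K27ac regions in the body plus 50 kb on each side of each gene, with regions that hold peaks of both replicates in dark purple and regions with a replicate 3 peak only stacked above in light blue. *Gata4* has 10 and 25, *Maff* has 6 and 14, and *Gata6* has 0 of either kind.

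The *Gata4* window, 173 kb long, was at percentile 99.2 of all protein-coding genes for distal regions with peaks of both replicates, and at percentile 99.0 when the count was taken per 100 kb of window. Of its 10 regions, 6 lay in the gene body and 4 in the flanks, and another 21 in the body and 4 in the flanks had a replicate 3 peak only. The replicate 2 fold enrichments of the 10 ran from 7.44 to 29.8, with a median of 11.4. Those in replicate 3 ran from 8.69 to 93.5, with a median of 22.7. In the body, the strongest in replicate 3 lay at chr14:63245108-63245664, with 11.4 in replicate 2 and 23.2 in replicate 3. It was 26.0 kb from the nearer end of the gene, and the starts of *Gata4* were not analysed here. Next were chr14:63225483-63225853, with 8.51 and 22.3 in replicates 2 and 3, and chr14:63255522-63256327, with 11.6 and 21.0. At chr14:63242949-63243382 the region was at a higher percentile in replicate 2 (57.6) than in replicate 3 (48.6). The body of *Gata4* therefore carried many regions of moderate strength, spread over its length.

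The strongest regions of the *Gata4* window lay outside the gene. The highest in replicate 3, at chr14:63177675-63178569 with 26.6 in replicate 2 and 93.5 in replicate 3, lay in the body of *Fdft1*, which encodes squalene synthase, 3.12 kb from an end of that gene. The highest in replicate 2, at chr14:63308800-63309630 with 29.8 in replicate 2 and 41.9 in replicate 3, was in no protein-coding gene and lay 37.1 kb beyond the high-coordinate end of *Gata4*, which was the nearest gene end. A region at chr14:63312181-63312570 lay 40.5 kb beyond that end, with 12.9 and 25.3 in replicates 2 and 3, and one at chr14:63281779-63282280 lay 10.1 kb beyond it, with 10.2 and 27.7. All 3 of these were nearer to *Gata4* than to any other protein-coding gene. Which gene a region acts on was not tested.

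The *Maff* window was at percentile 96.4 for distal regions with peaks of both replicates and at percentile 98.5 per 100 kb. None of its 6 regions lay in the body of *Maff*. One lay in *Pla2g6*, a phospholipase gene, 4 lay in *Tmem184b*, and 1, at chr15:79333287-79333923, lay in no protein-coding gene and nearer to an end of *Pla2g6* than to *Maff*. The strongest, at chr15:79396622-79397235 in *Tmem184b*, reached 17.7 in replicate 2 and 55.4 in replicate 3. The high count at *Maff* thus came from regions in or beside other genes, unlike at *Gata4*, where 6 of 10 were in the gene itself. The 2 bodies differ in length, with 12.5 kb at *Maff* and 72.8 kb at *Gata4*, and the contrast was not adjusted for this. With 20 kb on each side in place of 50 kb, *Maff* held 2 and *Gata4* held 7. With the gene body alone *Maff* held 0 and *Gata4* held 6. With 100 kb on each side, *Maff* held 7 and *Gata4* held 18. With both lists held to their 26975 strongest peaks, *Maff* held 6 and *Gata4* held 8. Where each peak had to cover at least 50% of the other, *Maff* held 5 and *Gata4* held 7.

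*Mafk* and *Gata2* each had 3 distal regions with peaks of both replicates, at percentile 84.5 of protein-coding genes. All 3 of *Mafk* lay in its body, which is 11.1 kb long, so a position within 5.26 kb of an end can be near its middle. The strongest of them, at chr5:139794786-139795423, had 11.6 in replicate 2 and 37.2 in replicate 3. The other 2 had 8.25 and 8.81 in replicate 2 and 16.5 and 25.1 in replicate 3. Of those of *Gata2*, 2 lay in its body. One was that of the inner start, and the other, at chr6:88203075-88203947, had 13.5 in replicate 2 and 46.0 in replicate 3, the highest replicate 3 value of the *Gata2* window. The third, at chr6:88148453-88149019, had 10.4 in replicate 2 and 33.9 in replicate 3 and lay 44.9 kb outside the gene, in no protein-coding gene, and slightly nearer to an end of *Rpn1*, at 43.1 kb. In the window of *Gata2*, the own-end regions were weaker in each replicate than all 3 distal ones.

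*Maf* had 1 distal region with peaks of both replicates, at chr8:115688985-115689765, 13.5 kb outside the gene. Its fold enrichments were 10.2 and 25.1 in replicates 2 and 3, at percentiles 51.7 and 79.6. No other protein-coding gene lay in the *Maf* window. Another 8 regions with a replicate 3 peak only had fold enrichments of 3.91 to 9.15. *Gata6* also had no other protein-coding gene in its window but no distal peak in either replicate, so its weak own-end regions, the shared one at chr18:11052291-11052930, were the only ones in 133 kb. *Gata5* had 2 distal regions and *Gata1* had 1, each with a replicate 3 peak only. The strongest region of the *Gata1* window, with 19.7 in replicate 2 and 63.8 in replicate 3, lay at an end of *Hdac6*.

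**Figure D3:**
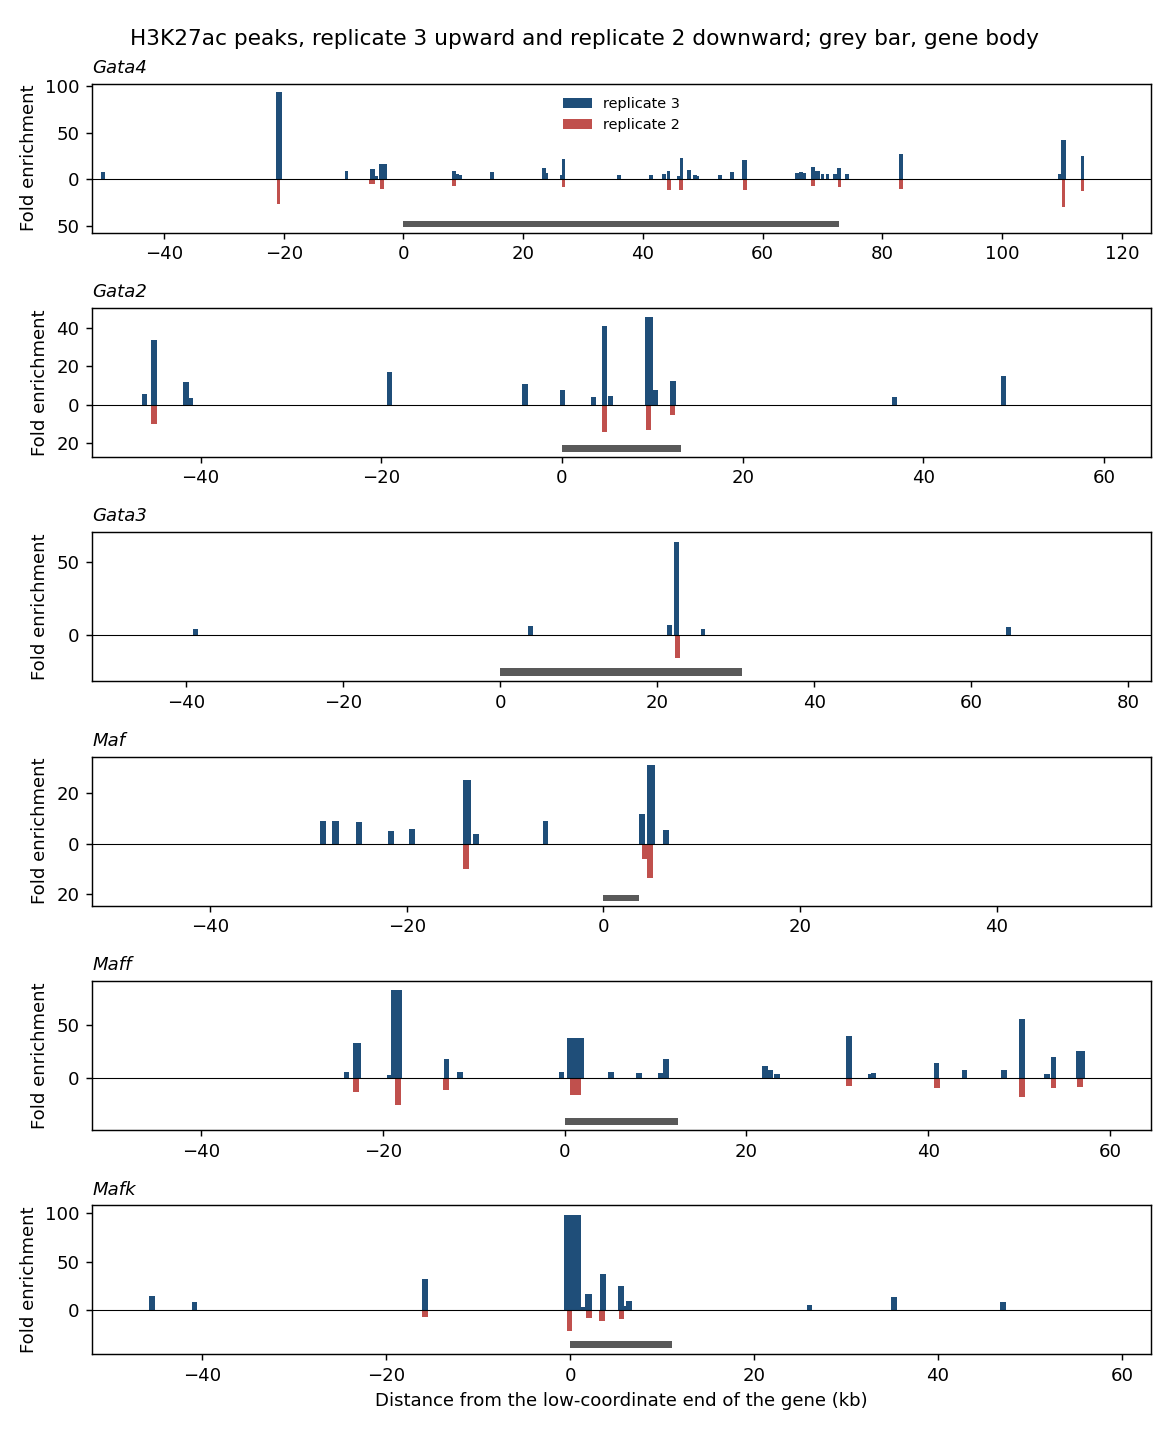
H3K27ac peaks around 6 genes by distance (kb) from the low-coordinate end of the gene, with the height as fold enrichment, replicate 3 drawn upward in blue, replicate 2 downward in red, the gene body as a grey bar, bars at least 0.6 kb wide, and a vertical scale of its own in each panel. The tallest bars of the *Mafk* panel stand at the end of the gene, those of the *Gata4* and *Maff* panels stand outside the gene, and the tall pair of the *Gata3* panel stands inside it.

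Regions with peaks of both replicates had the higher median in replicate 3, as they did over the genome. They also had to be called in the shorter replicate 2 list, so the split itself favours strong regions. The 24 distal regions had fold enrichments of 7.44 to 29.8 in replicate 2, with a median of 11.2, and of 8.69 to 93.5 in replicate 3, with a median of 25.2. Over all distal regions of the genome with peaks of both replicates, the medians were 8.81 and 21.2. The 71 distal regions with a replicate 3 peak only had fold enrichments of 3.54 to 18.05, with a median of 5.73, against 6.21 over all such regions. Of the members' distal regions with a replicate 3 peak, 25.3% also had a replicate 2 peak, against 30.6% over the genome.

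**Figure D4:**
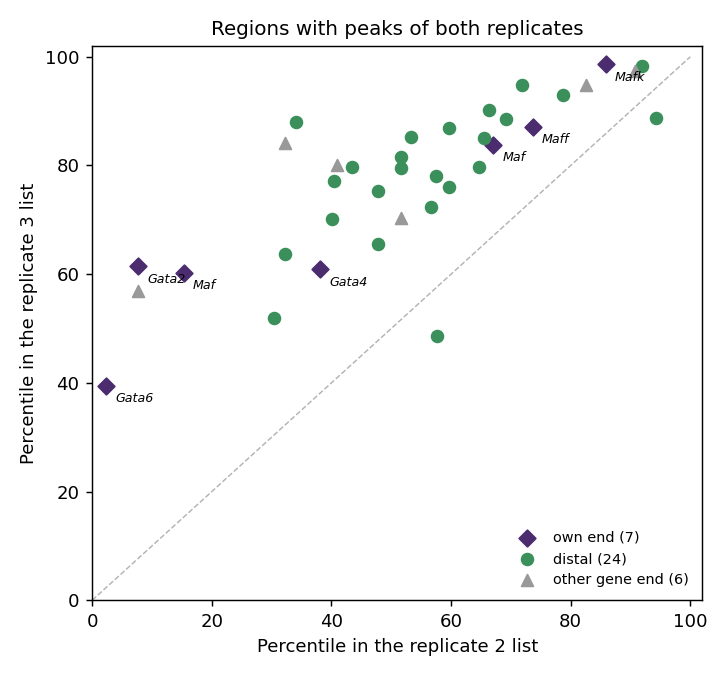
Percentile of fold enrichment in the replicate 2 list (horizontal) against that in the replicate 3 list (vertical) for the regions of the 9 windows with peaks of both replicates, with diamonds for own-end regions, circles for distal ones, and triangles for those at the end of another gene. All but 2 distal regions lie above the dashed line of equal percentiles, and the own-end regions run from *Gata6* at the lower left to *Mafk* at the upper right. The replicate 3 list is longer, which by itself can place shared regions above the line.

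Genes with a pattern most like those of *Gata4* and *Maf* were sought among all protein-coding genes by the distance over 5 percentiles, those of the highest own-end fold enrichment in each replicate, the number of distal regions with peaks of both replicates, and the bases under such regions near the ends and in the whole window. Nearest to *Gata4* were *Rapgef5* at a distance of 3.78 percentile points, *Tshz2* at 5.50, and *Lhfpl2* at 5.52, with 13, 11, and 16 distal regions. Nearest to *Maf* were *Aven* at 1.62, *Ndufb11* at 3.37, and *Mindy3* at 4.60, with 1 distal region each. These distances rest on 2 libraries.

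The partners and relatives of these factors were counted as 1 list of 14 genes. Of these, 9 had an own-end region with peaks of both replicates, 3 had one with a replicate 3 peak only, and 2 had none. The share of all protein-coding genes with one of both replicates was 44.1%, and the list was not tested against it. Of the MAF relatives in the list, *Mafa* and *Mafg* had one with peaks of both replicates, although the replicate 2 peak at *Mafg* itself lay beyond 1 kb, and *Nrl*, a retinal factor, had none. Of 5 cofactors of GATA proteins, *Zfpm1*, *Zfpm2*, and *Tal1* had one, *Lmo2* had one with a replicate 3 peak only, and *Ldb1* had none at its gene ends but one with peaks of both replicates at an annotated start. *Zfpm1*, which encodes the cofactor FOG1, had the highest replicate 3 value of the list, with 21.9 in replicate 2 and 141 in replicate 3. Of 6 CNC genes, which encode dimer partners of the small MAF proteins, *Nfe2l1*, *Nfe2l2*, *Bach1*, and *Bach2* had one with peaks of both replicates, and *Nfe2* and *Nfe2l3* one in replicate 3 only. At their annotated starts, *Bach2* and *Nfe2l3* had no peak of either replicate within 1 kb. *Bach1* had fold enrichments of 34.8 in replicate 2 and 94.1 in replicate 3 with 13 distal regions of both replicates, and *Bach2* had 17.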

How the data were processed

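H3K27ac ChIP-Seq of isolated mouse LSECs was deposited as 1 list of peaks per library. The authors' processing notes name the build mm10, cutadapt, BWA 0.7.17, Picard 1.67, MACS2 2.0.10, and bedtools 2.27.1, with no role or order, and whether the inputs entered peak calling is not given in the sources used here. The study's methods describe a tagmentation-assisted protocol, whereas the sample records describe sonication. Per the layout of the deposited lists, the values are a fold enrichment (a ratio to background), the −log10 of the p-value and of the q-value, and a score. The deposited score equals 10 times the −log10 q cut to a whole number and was not used. The lists were made by the authors per library, not on pooled libraries, and replicates were compared by overlap of at least 1 bp. Depth is unknown.

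Gene bodies and ends came from the RefSeq table of GRCm38.p6, which is the mm10 assembly, and starts and promoters from a RefSeq table of the same build. A merged region took the place of a peak in all counts, so a region counted for both replicates within 1 kb of an end may hold a replicate 2 peak farther away. Positions are counted from 1. No test was made, since 2 libraries of 1 condition allow none between conditions. The members, lists, and alternatives were chosen with earlier results of these data known. All 9 members and the partner list are named, except for 1 gene of that list, which is not reported here and was left out of its counts, and the promoters shown were drawn from members with an own-end region of both replicates, with *Gata3* added. The counting was tested on simulated peaks planted at 200 long genes without close neighbours, of which 200 were recovered in full. Own-end peaks were planted at the low-coordinate end only. Short genes, high-coordinate ends, and windows with other genes, as at *Maff*, were not covered by it. Python 3.11.15, numpy 2.4.6, pandas 2.3.3, and matplotlib 3.10.9 were used. Alternatives are given in the closing section.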

Additional observations from a re-analysis of the deposited data

How the results depend on the processing

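Among comparisons of the counts over all members or all genes with an alternative, 43 stayed within 1.5 times the count and 7 did not. The number of own-end regions of both replicates, 7, dropped to 4 where each peak had to cover at least 50% of the other, and lay between 7 without replicate 3 and 11 without replicate 2. The number of distal regions, 24, was 45 with 100 kb on each side and 12 in gene bodies only, and lay between 24 without replicate 3 and 95 without replicate 2. Over all protein-coding genes, those with an own-end region fell from 9641 to 4894 under that overlap rule, and those with a distal region from 11184 to 4090 in gene bodies only. Gene bodies, 100 kb flanks, and single lists search fewer or more bases or peaks by construction, and for the overlap rule the cause was not tested. The number of members with an own-end region, 6, became 4 at a q-value of 1e-05 or below (*Gata2* and *Gata6* lost), 5 with both lists held to their 26975 strongest peaks (*Gata6* lost), and 4 under the overlap rule (*Gata6* and *Mafk* lost). Ranking by −log10 p instead of fold enrichment moved each own-end percentile by less than the spread between replicates. Annotated starts in place of gene ends, an alternative chosen after seeing the data, gave 4 of the 6 members with an entry. For single members, 101 values stayed, among them distal counts of 0 at *Gata1*, *Gata5*, and *Gata6*, which could not fall. Another 22 moved, all 22 of them counts of distal regions. Own-end counts of single members were not among these values, so the tally does not show that they were stable. They fell at *Gata2*, *Gata6*, and *Mafk* as given above. At *Maf* they fell from 2 to 1 under the overlap rule and with the 26975 strongest peaks of each list. They rose from 1 to 2 at *Mafk* with 2.5 kb from gene ends. Without replicate 2 they rose from 1 to 2 at *Gata2*, *Gata4*, *Gata6*, and *Maff*. No paired analysis was possible because no groups were compared. Unknown depth limits what a missing replicate 2 peak can show.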
